A study of Mus musculus with 2 samples.

Results

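Adarb2 interneurons of caudal ganglionic origin were chosen here from single-nucleus RNA sequencing of the mouse hippocampus by their unique molecular identifier (UMI) counts. A nucleus was a member when it had at least 500 detected genes and at most 5% mitochondrial UMIs. It also needed at least 4 UMIs of Gad1, Gad2 and Slc32a1 together, at least 10 of Adarb2, and none of Lhx6 or Trp73. The rule kept 1083 of the 48103 nuclei past the quality filter, 550 of 25060 in the control library and 533 of 23043 in the library labelled knockout. These nuclei are called Adarb2 nuclei. The levels of the choosing genes in them describe the choice and are no finding.

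The series holds 2 libraries from the hippocampus of mice aged 19 postnatal days. Control tissue came from animals homozygous for a floxed allele of Cic (genotype Cicflox/flox), and the other library was made from their littermates with Emx1-Cre in addition, written Emx1-Cre; Cicflox/flox in the labels. Each library pooled tissue of 3 mice, 2 males and 1 female, so both groups carry floxed Cic and a group is 1 pool with no replicate. No difference between the libraries could be tested, and every interval below is a 95% interval for counting error alone. Emx1-Cre recombines in the dorsal telencephalic lineage that gives excitatory neurons and part of the glia, and interneurons born in the ganglionic eminences are outside that lineage.

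Inhibitory interneurons of the hippocampus are born mainly in the medial and caudal ganglionic eminences of the ventral forebrain. The medial lineage keeps the transcription factor Lhx6 and gives somatostatin and parvalbumin cells. The caudal lineage, marked in transcript data by Adarb2, gives vasoactive intestinal peptide (Vip) cells that mostly inhibit other interneurons, Lamp5 and Ndnf neurogliaform cells that release GABA diffusely, and cholecystokinin (Cck) basket cells that carry the cannabinoid receptor Cnr1 on their terminals. Capicua, the protein made from Cic, is a transcriptional repressor whose best known targets are Etv1, Etv4, Etv5 and feedback inhibitors of the MAPK pathway.

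The Adarb2 nuclei had a median of 17205 UMIs and 4391 genes in the control library and 14384 UMIs and 4081 genes in the library labelled knockout. They made up 2.19% of control nuclei (exact binomial interval 2.02% to 2.38%) and 2.31% (2.12% to 2.52%) in the library labelled knockout, and the intervals overlap. With called doublets and nuclei with 2 or more Slc17a7 UMIs left out of both the members and the total, the shares were 2.91% (2.63% to 3.22%) of 12806 nuclei and 3.32% (3.02% to 3.64%) of 12991, and the intervals overlap. As a share of all nuclei not called doublets, 21865 and 20531, these members made up 1.71% (1.54% to 1.89%) and 2.10% (1.91% to 2.30%), which do not overlap. All these intervals cover counting error only. Of the nuclei with the required Gad1, Gad2 and Slc32a1 sum, 1459 and 1352, the Adarb2 minimum kept 654 and 618. Requiring no Lhx6 UMI left 559 and 551, and requiring no Trp73 UMI left the 550 and 533. Adarb2 (ENSMUSG00000052551), a member of the RNA-editing enzyme family with no known editing activity, ranged from 10 to 2079 UMIs per chosen nucleus in the control, with a median of 174, and from 10 to 1379 with a median of 151 in the library labelled knockout. The 2 libraries shared 175 barcode sequences, and no chosen nucleus was among them. A lower sum over nuclei can come from fewer nuclei with a gene or from less of its RNA in each, and the sum alone does not tell these apart. For some genes the number or share of nuclei with a UMI is given beside the sum.

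Markers that the rule did not use were read next. Dlx6os1, a noncoding RNA of the interneuron lineage, had a UMI in 491 of 550 Adarb2 nuclei (89.3%) of the control and 472 of 533 (88.6%) of the library labelled knockout. In excitatory nuclei, defined by at least 4 UMIs of the vesicular glutamate transporter Slc17a7 and no Gad1, Gad2 or Slc32a1 UMI, the shares were 2.85% and 2.18%. Since the nuclei were chosen for these GABA genes and excitatory nuclei lacked them, a difference in Dlx6os1 was largely set by the choice. Lhx6 nuclei, defined below, had Dlx6os1 in 98.4% and 96.1%, so it does not mark the caudal lineage. Npas1, a transcription factor of the caudal lineage, had a UMI in 45.5% of Adarb2 nuclei of the control (41.2% to 49.7%) and 48.8% (44.5% to 53.1%), against 0.873% and 1.04% of excitatory nuclei. Htr3a, the ionotropic serotonin receptor of these cells, had one in 16.7% (13.7% to 20.1%) and 24.0% (20.4% to 27.9%), against 0.405% and 0.308%. The Htr3a intervals of the 2 libraries do not overlap, and they cover counting error only. Each of these markers was more frequent in the chosen nuclei than in excitatory ones. That contrast does not tell the caudal from the medial lineage, and Lhx6 nuclei are compared below.

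Part of the chosen nuclei also carried transcripts of other cells. At least 2 Slc17a7 UMIs were present in 144 Adarb2 nuclei of the control (26.2%) and 85 of the library labelled knockout (15.9%). Scrublet called 88 (16.0%) and 42 (7.88%) of the Adarb2 nuclei doublets, that is, droplets with 2 nuclei. Among all nuclei past the quality filter it called 12.7% in the control library and 10.9% in the library labelled knockout. The Adarb2 share was thus above that of all nuclei in the control and below it in the other library. Called doublets and nuclei with Slc17a7 UMIs were kept, since the rule does not remove them. A strict set without called doublets and without nuclei with 2 or more Slc17a7 UMIs held 373 control nuclei and 431 from the library labelled knockout, and Dlx6os1 had a UMI in 97.1% and 94.2% of it. The summed level of 8 excitatory markers was 209.7 and 164 CPM (a gene's UMIs as parts in 1000000 of all UMIs in the class) in the Adarb2 nuclei and 39.3 and 40.6 in the strict set. For 6 astrocyte markers it was 362 and 259 CPM, and 145 and 124 in the strict set. None of the excitatory or astrocyte markers was at 0 in either library. The main results between the libraries are therefore given for both sets.

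Nuclei next to the thresholds were mixed. Adarb2 nuclei with 10 to 14 Adarb2 UMIs numbered 27 and 23, and 59.3% and 43.5% had a Dlx6os1 UMI. Those left out with 5 to 9 numbered 31 and 23, with Dlx6os1 in 54.8% and 91.3%. Members with a GABA sum of exactly 4 had Dlx6os1 in 52.4% and 57.4%, and nuclei left out with a sum of 3 had it in 24.6% and 26.3%. Nuclei left out for an Lhx6 UMI alone numbered 95 and 62, and Lamp5 was present in 57.9% and 62.9% of them and Vip in 4.21% and 4.84%. The rule thus set aside many nuclei with both Lamp5 and Lhx6.

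Vip (ENSMUSG00000019772), which encodes the peptide that names the disinhibitory cells, had a UMI in 115 of 550 Adarb2 nuclei of the control, 20.9% (17.6% to 24.6%). In the library labelled knockout it had one in 111 of 533, 20.8% (17.5% to 24.5%). The intervals overlap almost wholly. Nuclei with a Vip UMI had a median of 5 Vip UMIs in the control library and 4 in the library labelled knockout, with highest values of 29 and 52. In cells that should lack Vip the shares were 2.43% and 3.25% of excitatory nuclei, whose nuclei had a median of 20573.5 and 18725 UMIs, and 3.01% and 3.55% of microglia, with medians of 2372 and 1932. When each nucleus was brought to 5000 UMIs, the expected share of Adarb2 nuclei with a Vip UMI was 15.8% and 15.8%, against 0.676% and 1.01% of excitatory nuclei. This left out 9 and 7 shallower Adarb2 nuclei. In the strict set the unthinned Vip shares were 25.2% (20.9% to 29.9%) and 21.3% (17.6% to 25.5%).

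Lamp5 (ENSMUSG00000027270), a lysosome-associated membrane protein that marks neurogliaform and ivy-like cells, had a UMI in 111 of 550 Adarb2 nuclei of the control, 20.2% (16.9% to 23.8%). In the library labelled knockout it had one in 104 of 533, 19.5% (16.2% to 23.1%). Nuclei with Lamp5 had a median of 2 Lamp5 UMIs in each library. Among excitatory nuclei the share was 8.88% in the control library and 4.00% in the library labelled knockout, and among microglia 1.17% and 0.947%. At 5000 UMIs per nucleus the expected Lamp5 share was 9.59% and 10.7% of Adarb2 nuclei and 2.41% and 1.22% of excitatory nuclei. The Lamp5 share therefore stood above that of these classes in both libraries. It depended on the GABA sum, at 32.0% and 28.9% of nuclei with a sum of 8 or more and 4.27% and 8.26% of those under 8. In the strict set it was 20.1% and 19.7%.

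**Figure D1:**
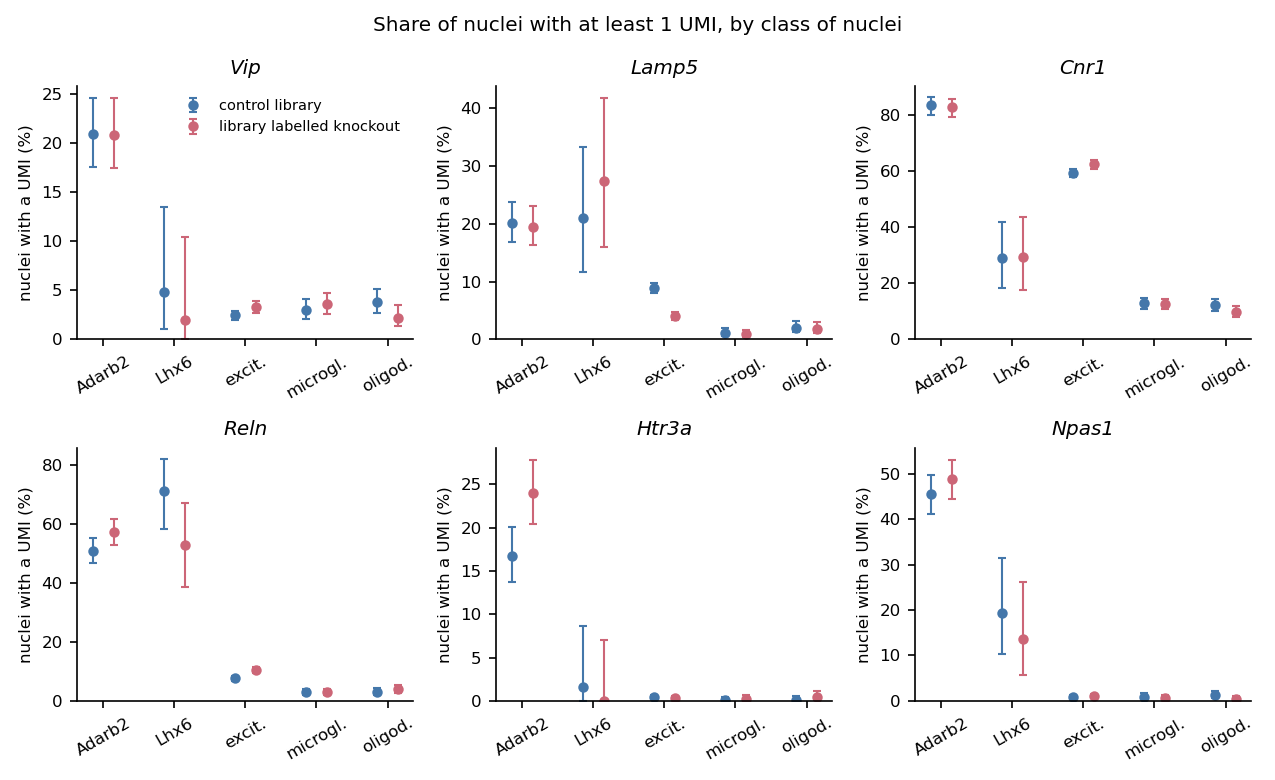
Share of nuclei with at least 1 UMI of 6 genes (vertical axis, percent) in Adarb2, Lhx6, excitatory, microglia and oligodendrocyte nuclei (horizontal axis), for the control library (blue) and the library labelled knockout (red). Points are shares and bars are exact binomial 95% intervals for counting error. Vip stood near 21% in Adarb2 nuclei of both libraries and under 5% elsewhere, while Lamp5 stood at 20.2% and 19.5% in Adarb2 nuclei and at 27.5% in Lhx6 nuclei of the library labelled knockout.

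Few nuclei held both Vip and Lamp5. Nuclei with Vip and no Lamp5 numbered 101 (18.4%) in the control library and 106 (19.9%) in the library labelled knockout. Nuclei with Lamp5 and no Vip numbered 97 (17.6%) and 99 (18.6%). Both genes were present in 14 control nuclei (2.55%, 1.40% to 4.23%) and 5 nuclei from the library labelled knockout (0.938%, 0.305% to 2.18%). Neither was present in 338 (61.5%) and 323 (60.6%), the largest class in each library. The Vip level within Vip-only nuclei was 425 CPM in the control library and 424 CPM in the library labelled knockout, and the Lamp5 level within Lamp5-only nuclei was 97.0 and 129 CPM.

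Vip-only nuclei carried other genes known for Vip cells. Synpr, which encodes the synaptic vesicle protein synaptoporin, stood at 1673 and 1683 CPM there in the 2 libraries, against 294 and 213 CPM in Lamp5-only nuclei. Penk, the enkephalin precursor, stood at 81.3 and 54.5 CPM against 2.49 and 1.71. The calcium-binding protein gene Calb2 stood at 41.8 and 32.3 CPM against 2.90 and 2.28, and Crh, the stress peptide, at 22.6 and 35.5 against 0.829 and 0. Igf1, the growth factor, stood at 238 and 283 CPM against 65.5 and 131. Prox1, a transcription factor kept by caudal interneurons, stood at 240.3 and 246 against 94.1 and 98.1. Each of these genes was higher in Vip-only than in Lamp5-only nuclei of both libraries. Igf1 did not set Vip-only nuclei apart from the other Adarb2 nuclei. The Cnr1 nuclei without Vip, Lamp5 and Reln, defined below, held 219 and 307 CPM of it. Synpr, Penk, Calb2, Crh and Prox1 were lower there than in Vip-only nuclei, with Synpr at 978 and 871 CPM.

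Lamp5-only nuclei carried neurogliaform genes, but part of them were mixed. At least 2 Slc17a7 UMIs were present in 30.9% and 13.1% of them, and 21.6% and 11.1% were called doublets. In Vip-only nuclei these shares were 8.91% and 13.2%, and 11.9% and 10.4%. The levels given are for all nuclei of each class. Reln, the secreted glycoprotein reelin, stood at 1082 and 1031 CPM in Lamp5-only nuclei, against 221 and 126 CPM in Vip-only nuclei. Ndnf, a secreted neurotrophic factor, stood at 194 and 188 CPM against 16.8 and 3.17. Kit, a receptor tyrosine kinase, stood at 157 and 195 against 43.0 and 54.5, and Npy, neuropeptide Y, at 21.6 and 35.9 against 1.16 and 1.90. Nxph1, which encodes the neurexin ligand neurexophilin 1, stood at 1639.6 and 2221 CPM against 179 and 103. Nxph1 is also listed for the medial lineage, and Lhx6 nuclei held 3007 and 3424 CPM. Adarb2, which chose the nuclei, stood at 7304 and 6979 CPM in Lamp5-only nuclei and 18757 and 16899 CPM in Vip-only nuclei.

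The nuclei with neither gene were read by Cnr1 and Reln, at 5 or more UMIs of each. This split and its threshold were chosen after the values had been seen. Cnr1 without Reln marked 112 of 338 such nuclei in the control (33.1%) and 111 of 323 in the library labelled knockout (34.4%). Both genes marked 84 (24.9%) and 104 (32.2%), and Reln without Cnr1 marked 27 (7.99%) and 24 (7.43%). The remaining 115 (34.0%) and 84 (26.0%) passed neither threshold.

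In the Cnr1 nuclei without Reln, the genes listed for Cck basket cells went in different directions. Cck stood at 45.0 CPM in the control library and 67.4 CPM in the library labelled knockout, against 33.7 and 43.1 in Vip-only nuclei and 16.2 and 18.8 in Lamp5-only nuclei. Slc17a8, the vesicular glutamate transporter found in a subset of Cck basket cells, stood at 59.1 and 159 CPM, against 4.64 and 1.27 in Vip-only nuclei and 6.22 and 1.71 in Lamp5-only nuclei. Krt73, a keratin gene listed with this type, had 44 and 72 UMIs there, 10 and 4 in Vip-only nuclei and 3 and 0 in Lamp5-only nuclei. Sncg, which names the type in some atlases, had 2 and 1 UMIs. Trpc6 was lower there, at 32.7 and 9.63 CPM, than in Vip-only nuclei, at 91.1 and 60.2, and than in Lamp5-only nuclei, at 62.6 and 14.8. Col19a1, a collagen gene, stood at 949.9 and 1018 CPM in these nuclei and at 1608 and 1548 in nuclei with both Cnr1 and Reln. In Vip-only nuclei it stood at 226 and 180.1, and in Lamp5-only nuclei at 245 and 253. The nuclei with Cnr1 and Reln also had 238 and 208 CPM of Ndnf, as much as Lamp5-only nuclei, but 22.8 and 48.7 CPM of the phosphodiesterase gene Pde11a, against 277 and 357 in Lamp5-only nuclei.

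The nuclei under both thresholds went against the label in part. Dlx6os1 had a UMI in 60 of 115 (52.2%) of them in the control library and in 29 of 84 (34.5%) in the library labelled knockout, against 100% of Cnr1 nuclei without Reln in both libraries. At least 2 Slc17a7 UMIs were present in 53.0% and 41.7% of them, against 9.82% and 4.50% of the Cnr1 nuclei. Their median Adarb2 count was 26 and 29.5, against 264.5 and 252. Their Prox1 level was 210.1 and 269 CPM, against 62.7 and 52.4 CPM in the Cnr1 nuclei. Prox1 is also made by dentate granule cells, so it does not set these nuclei in the caudal lineage, and they stay unnamed here.

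**Figure D2:**
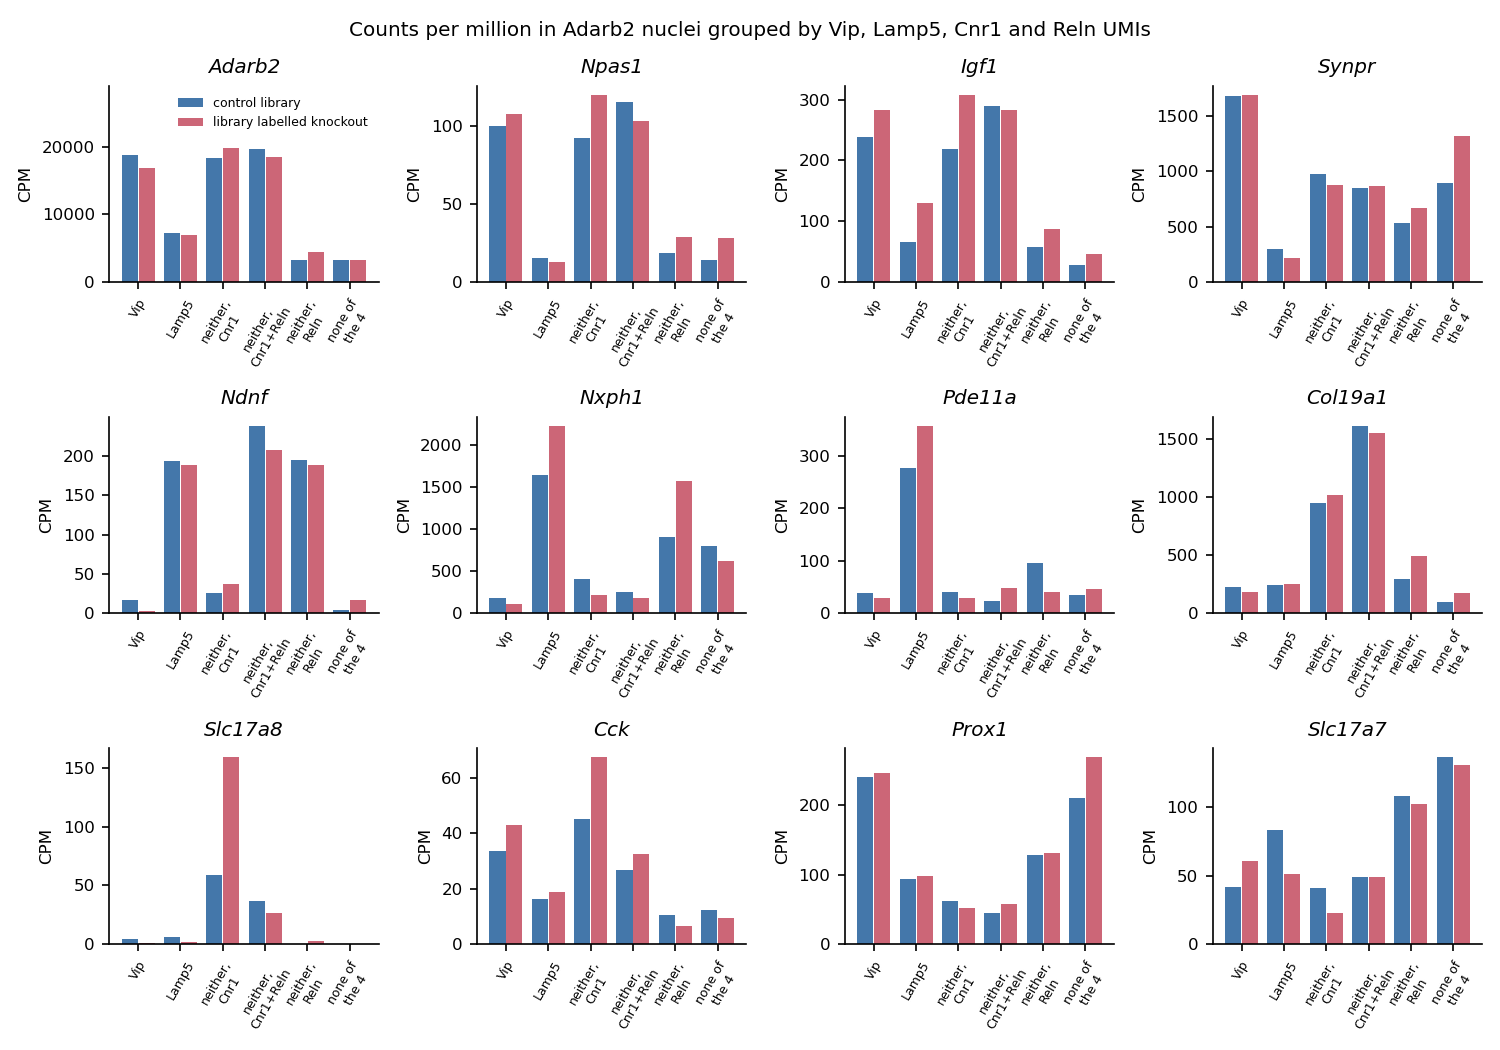
Level of 12 genes in CPM (vertical axes, starting at 0) in Adarb2 nuclei grouped by UMIs of Vip, Lamp5, Cnr1 and Reln (horizontal axis), with 1 bar for the control library (blue) and 1 for the library labelled knockout (red). Slc17a8 was highest in nuclei with Cnr1 and without Vip, Lamp5 and Reln (59.1 and 159 CPM), Pde11a in Lamp5 nuclei, and Slc17a7 in nuclei under all 4 thresholds.

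Adarb2 nuclei with at least 2 Vip UMIs and no Lamp5 (78 in the control, 86 in the library labelled knockout) were set against those with at least 2 Lamp5 UMIs and no Vip (62 and 58). A gene was counted when its higher side reached 50 UMIs and 10 CPM and when it differed by at least 2-fold in each library. Of 3776 genes past that minimum in both libraries, 163 (4.32%) were higher in the Vip nuclei and 160 (4.24%) were lower. The genes were counted by size, with no test. Nuclei of 1 library are no replicates, and the 2 libraries gave the same direction for each counted gene by construction.

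Among the 12 genes highest in the Vip nuclei was Grm8, a presynaptic metabotropic glutamate receptor, with 1144 CPM against 46.6 in the control library and 870 against 31.6 in the library labelled knockout, log2 ratios of 4.61 and 4.76. Tshr, the thyrotropin receptor gene, had 53 UMIs against 0 in the control library and 73 against 1 in the library labelled knockout, and the first of these is at least 18.7-fold higher at a floor of 3 UMIs over the group. Grpr, the receptor of gastrin-releasing peptide, had 89 UMIs against 0, at least 31.4-fold higher, and 89 against 4. In the library labelled knockout the Tshr log2 ratio was 5.15 (3.20 to 11.05). Cbln2, a secreted synapse organiser, had 55 and 66 UMIs against 1 and 1. Wnt5b and Rspo2, which encode secreted proteins of WNT signalling, stood at 206 and 114 CPM and at 188 and 116 CPM, against 5.63 and 8.44 and against 16.1 and 6.33. Penk had 134 and 83 UMIs against 4 and 1. Fbln2, an extracellular matrix gene, had 124 and 110 against 1 and 4, and Cp, which encodes the copper carrier ceruloplasmin, had 176 and 96 against 1 and 4. Lama3, Ostf1 and Gm39185 completed the 12, with 54 to 81 UMIs in the Vip nuclei and 0 to 4 in the Lamp5 nuclei.

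Among the 12 lowest, Ndnf had 2 UMIs in the Vip nuclei of each library, against 331 and 225 in the Lamp5 nuclei, which is 1.70 and 1.53 CPM against 266 and 237. Mctp2, which encodes a calcium-binding membrane protein, had 0 and 0 UMIs against 128 and 88, at least 40.3-fold and 40.5-fold lower at the same floor. Nxph1 stood at 70.6 and 70.3 CPM against 2532 and 2759.9, log2 ratios of −5.16 and −5.29. Chrm2, the muscarinic receptor, stood at 4.26 and 5.35 CPM against 489 and 255. The noncoding 9330158H04Rik overlaps Chrm2 on the opposite strand and had 0 and 0 UMIs against 113 and 67, at least 35.6-fold and 30.8-fold lower. Crispld1 and Gm16070 overlap each other on opposite strands as well, so for both pairs reads may be shared if counting did not use strand. Sv2c, a synaptic vesicle protein gene, had 1 and 9 UMIs against 282 and 190. Arhgap6, Hapln1, Reln and Ntng1, which encodes netrin G1, made up the rest, with log2 ratios from −5.07 to −4.30 in the control library and −5.02 to −3.68 in the library labelled knockout.

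Several lists are given beside all genes tested in this contrast, of which 4.32% were higher and 4.24% lower in the Vip nuclei. Of 9 Lamp5-type genes not used to choose the nuclei, 5 passed the minimum in both libraries and all 5 were lower in the Vip nuclei: Ndnf, Reln, Kit, Sv2c and Pde11a. The list had a median log2 ratio of −4.10 in the control library and −3.87 in the library labelled knockout, where all genes had medians of −0.05 and −0.03. Of 9 caudal-lineage genes, 5 passed the minimum and 4 were higher: Prox1, Npas1, Npas3 and Nr2f2, all transcription factors. Npas1 stood at 120.0 and 109 CPM against 12.9 and 6.33. Of 38 transmitter receptor genes, 27 passed it and 6 were higher, including Htr2c at log2 ratios of 2.70 and 2.68 and Cnr1 at 1.25 and 1.59, and 3 were lower: Grin2a at −3.35 and −2.19, Adra1a at −2.54 and −2.42, and Gria3 at −1.79 and −1.01. Slc17a7 stood at 35.7 and 61.1 CPM in the Vip nuclei and 49.8 and 38.0 in the Lamp5 nuclei.

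The Adarb2 nuclei were compared with Lhx6 interneuron nuclei, which had at least 3 Lhx6 UMIs, under 10 of Adarb2, no Trp73 and the same GABA sum. Only 62 such nuclei were found in the control library and 51 in the library labelled knockout, with median depths of 21863 and 17447 UMIs. Of 5514 genes past the minimum in both libraries, 323 (5.86%) were at least 2-fold higher in Adarb2 nuclei and 95 (1.72%) were at least 2-fold lower. The Lhx6 nuclei held 1463952 and 944992 UMIs in all, against 11758718 and 9240902 in the Adarb2 nuclei. The same UMI minimum is therefore a higher CPM in Lhx6 nuclei, and the minimum was unlike for higher and lower genes. The balance of higher and lower genes is not read. With Lhx6 nuclei of 1 or more UMIs, which numbered 398 and 364, the total was 567 genes in place of 418. The small number of Lhx6 nuclei used here thus follows from the limit of 3 UMIs.

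Among the 12 genes highest in Adarb2 nuclei, Cadps2, a factor of dense-core vesicle release, stood at 729 and 863 CPM against 34.8 and 47.6 in Lhx6 nuclei, log2 ratios of 4.37 and 4.16. Cnr1 (ENSMUSG00000044288) stood at 539 and 735 CPM against 23.2 and 46.6, log2 ratios of 4.52 and 3.97. Vip was next to them, at 68.7 and 73.0 CPM against 2.73 and 1.06. Zfhx4, a zinc finger homeobox factor, had 278 and 176 UMIs against 0 and 0, at least 11.5-fold higher in the control, and the bound was lower in the library labelled knockout. Its fitted log2 ratios, which depend on the 0.5 UMI added, were 6.12 and 5.17, and 3.68 and 3.36 between strict sets. The long noncoding Gm39185 had 285 and 284 UMIs against 0 and 0, at least 11.8-fold and 9.68-fold higher. Sema5b, Syt6, Tspan18, Megf10, Htr3a, Gm9968 and Emx2os were the others. Gm9968 had 147 and 112 UMIs against 1 and 0, and Emx2os had 199 and 109 against 2 and 0. In the library labelled knockout they were at least 3.82-fold and 3.72-fold higher. Their fitted log2 ratios, which with so few UMIs in Lhx6 nuclei depend on the 0.5 UMI added, were 3.61 and 4.52 for Gm9968 and 3.31 and 4.49 for Emx2os, and between strict sets 1.90 and 2.82 and 1.90 and 2.71. Gm9968 overlaps Zbtb20 and Emx2os overlaps Emx2 on the opposite strand, so reads may be shared if counting did not use strand.

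Among the 12 lowest, Lypd6b and Lypd6, which encode modulators of nicotinic receptors, were both low. Lypd6b stood at 10.1 and 9.74 CPM against 122 and 93.1 in Lhx6 nuclei, and Lypd6 had log2 ratios of −3.04 and −2.98. Moxd1, a monooxygenase gene, had log2 ratios of −3.35 and −2.98. Eya4, a transcriptional coactivator, stood at 14.5 and 13.7 CPM against 102 and 108. Il1rapl2 stood at 115 and 163 CPM against 865 and 873. Tmem44, Nek7, Zbtb7c, the calcium channel subunit gene Cacna2d2, Mageb18, Tll1 and Rnf144b completed the group, with log2 ratios from −2.89 to −2.36 in the control library and from −3.10 to −2.34 in the library labelled knockout.

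By role, 8 of 9 caudal-lineage genes not used by the rule passed the minimum, and 6 of them were higher in Adarb2 than in Lhx6 nuclei of both libraries, where 5.86% of all genes tested were higher and 1.72% lower: Prox1, Nr2f2, Npas1, Htr3a, Cxcl14 and Nfib. Prox1 stood at 128 and 128 CPM against 6.83 and 19.1, and Npas1 had log2 ratios of 1.68 and 2.66. Part of the Prox1 level lay in the unnamed nuclei described above, and dentate granule cells also make Prox1. Of 10 Vip-type genes, 4 passed, with Vip, Penk and Igf1 higher and none lower. Of 16 neuropeptide genes 3 passed, and Vip and Penk are the 2 that were higher. A gene high in Lhx6 nuclei needed more CPM to pass than a gene high in Adarb2 nuclei. List members that did not pass, and the lack of lower ones, are therefore not read. Of 10 Lamp5-type genes, 6 passed, with Ndnf, Kit and Sv2c higher and Eya4 and Pde11a lower, and of 10 Cck-type genes 8 passed, with Cnr1 and Htr3a higher and Trpc6 lower. Of 11 medial-lineage genes, 4 passed the minimum and 3 were lower: Sox6, which acts in the maturation of medial interneurons, at 69.8 and 65.2 CPM against 250.0 and 386, Satb1 at 52.7 and 48.8 against 178 and 184, and Nxph1 at 722 and 706 against 3007 and 3424. Among 38 transmitter receptors, 32 passed it and 7 were higher, including Htr2c at log2 ratios of 3.57 and 2.43 and the adrenergic receptor Adra1b at 2.24 and 2.78. Of the 5 that were lower, 3 encode AMPA receptor subunits: Gria1 at −1.31 and −1.34, Gria3 at −1.12 and −1.66 and Gria4 at −1.29 and −1.07. The other two were Oprd1 and Grin3a.

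Lamp5 and Reln did not separate the lineages. Lamp5 had a UMI in 13 of 62 Lhx6 nuclei of the control and 14 of 51 (27.5%) of the library labelled knockout, and Reln in 71.0% and 52.9%, against 50.9% and 57.2% of Adarb2 nuclei. Markers of other cells differed between these sets too. Slc17a7 stood at 75.3 and 59.4 CPM in Adarb2 nuclei against 20.5 and 22.2 in Lhx6 nuclei, and the myelin genes Mobp and Mog at 28.8 and 25.2 and at 21.7 and 15.0, against 4.78 and 2.12 and against 8.88 and 4.23. The summed level of the 6 oligodendrocyte markers was 282 and 291 CPM against 153 and 75.1. In the strict set 261 genes were higher and 112 lower, and 254 of these genes were among the 418. The minimum was unlike for higher and lower genes there too, so this balance is not read.

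**Figure D3:**
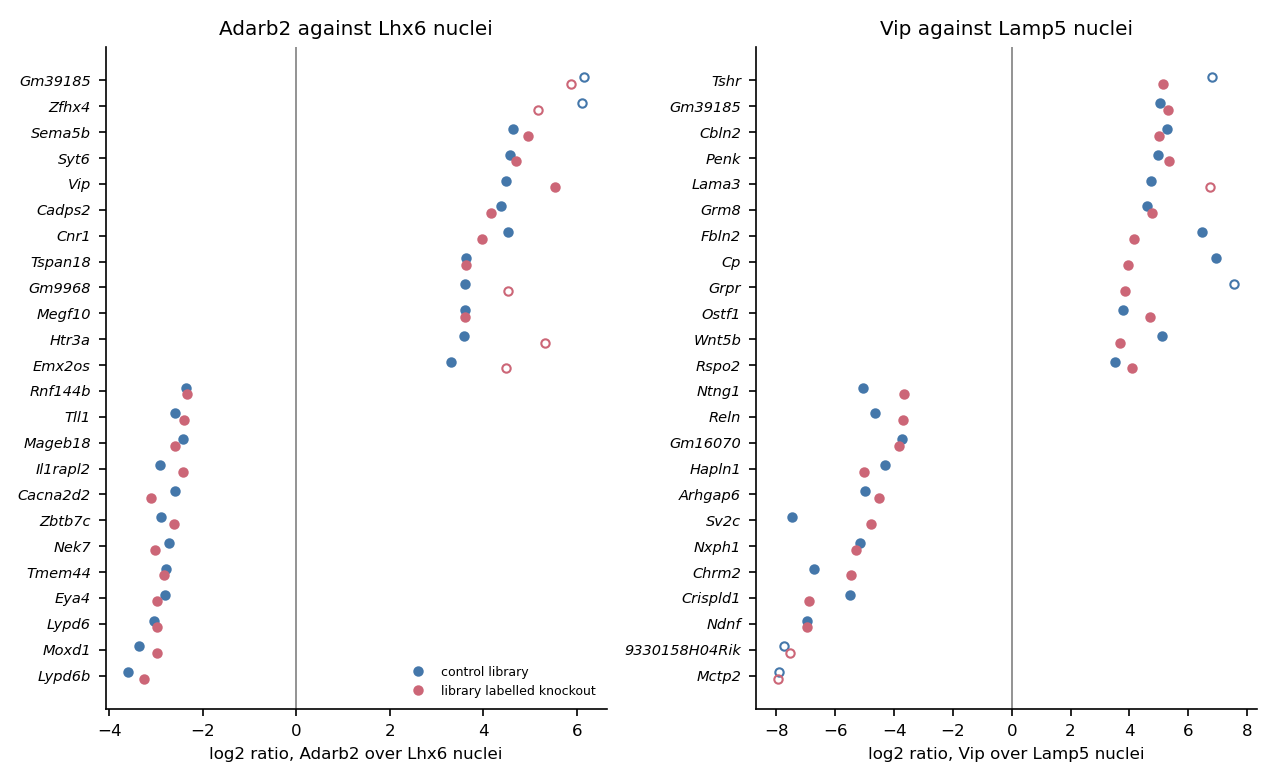
Log2 ratios (horizontal axes) of the 12 genes highest and the 12 lowest in Adarb2 against Lhx6 nuclei (left) and in Vip against Lamp5 nuclei (right), each within the control library (blue) and within the library labelled knockout (red). Open points have 0 UMIs on one side and depend on the 0.5 UMI added to each sum. For Lypd6b the ratios were −3.59 and −3.26, and for Grm8 4.61 and 4.76.

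Cic (ENSMUSG00000005442), the targeted gene, was low and alike in the Adarb2 nuclei of both libraries, with 127 UMIs in the control library and 106 in the library labelled knockout. That is 10.8 CPM and 11.5 CPM (exact Poisson interval of the second 9.39 to 13.9), a log2 ratio of 0.09 (exact conditional interval −0.30 to 0.47). Whether these transcripts contained the floxed exons cannot be read from counts per gene. In excitatory nuclei, which are in the Emx1 lineage, the log2 ratio of Cic was 0.63 (0.48 to 0.77), so its count was not lower there. For the same reason this count cannot check the label, and each direction below is for the library as labelled. In the strict set of Adarb2 nuclei it was −0.40 (75 and 57 UMIs).

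Between the libraries the Adarb2 nuclei were close. Of 8998 genes past the minimum, 20 (0.222%) were at least 2-fold higher in the library labelled knockout and 14 (0.156%) were at least 2-fold lower. The median log2 ratio of these 8998 genes was 0.04. Of the 20 higher genes, 10 were mitochondrial, and the rule used the sum of mitochondrial UMIs. Of the other 10, 2 were also at least 2-fold higher in the strict set, Etv4 and Dysf, and of the 14 lower genes 2 were also lower there, Adgrg6 and Dkk2. A further 2 higher genes, Hsd11b1 and Gm34567, and 4 lower genes, 4921539H07Rik, Prr5l, 2310002F09Rik and Rasgrp1, kept a ratio of at least 2-fold there but fell under the minimum. Dysf, Dkk2 and Rasgrp1 are named only for these counts. The balance of higher and lower genes depended on the nuclei taken, at 27 higher and 38 lower with a GABA sum of 8 or more, 15 and 27 in male nuclei and 18 and 22 without nuclei lacking Dlx6os1.

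Etv4 (ENSMUSG00000017724), an ETS transcription factor and a direct Capicua target, had the highest ratio. It had 54 UMIs in 41 control nuclei and 393 UMIs in 128 nuclei of the library labelled knockout, or 4.59 and 42.5 CPM, a log2 ratio of 3.20 (2.80 to 3.65). In the strict set it had 14 and 86 UMIs, or 2.24 and 13.7 CPM, a log2 ratio of 2.57. Female and male nuclei, told apart by Xist and Y-linked UMIs, held 4 and 19 of the control UMIs and 48 and 63 of the 393, with log2 ratios of 3.28 and 1.95. The greater part of both sums lay in nuclei assigned to neither sex. Microglia, which lie outside the Emx1 lineage, had 9.36 and 55.7 CPM, and excitatory nuclei had 2.34 and 81.5 CPM. At 5000 UMIs per nucleus the expected share with an Etv4 UMI was 1.88% and 11.2% of Adarb2 nuclei, 1.22% and 5.96% of the strict set, 1.85% and 16.5% of oligodendrocytes and 5.03% and 33.1% of the 136 and 111 microglia of that depth, out of 1198 and 1267. The Adarb2 share was below that of these microglia in both libraries. What part of it is expression in interneurons and what part is free RNA was not tested.

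The rest of the CIC target list stood within 2-fold. Of its 15 genes, 14 had at least 20 UMIs over both libraries, 11 of them higher and 3 lower, and only Etv4 passed 2-fold, against 0.222% of all genes tested. The median log2 ratio of the 14 was 0.47 in the Adarb2 nuclei, 0.21 in the strict set and 0.72 in excitatory nuclei, where all genes had medians of 0.04, 0.04 and 0.06. Etv5, a paralogue of Etv4, had 321 and 457 UMIs, a ratio of 0.86 (0.65 to 1.07), but −0.18 in the strict set from 192 and 170. Shc3, a signalling adaptor, had 0.54, and −0.04 in the strict set. Spred3, a MAPK inhibitor, had 0.90 and 0.45, and Etv1 0.55 and 0.52. In excitatory nuclei these 4 genes had 1.87, 1.67, 1.38 and 0.89. A list of 8 genes raised in granule neurons was chosen on these same libraries and is no independent evidence. All 8 were higher, as were 8956 of all 15541 genes, and 3 passed 2-fold, against 0.222% of all genes tested. Their median was 0.87, and 0.19 in the strict set.

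**Figure D4:**
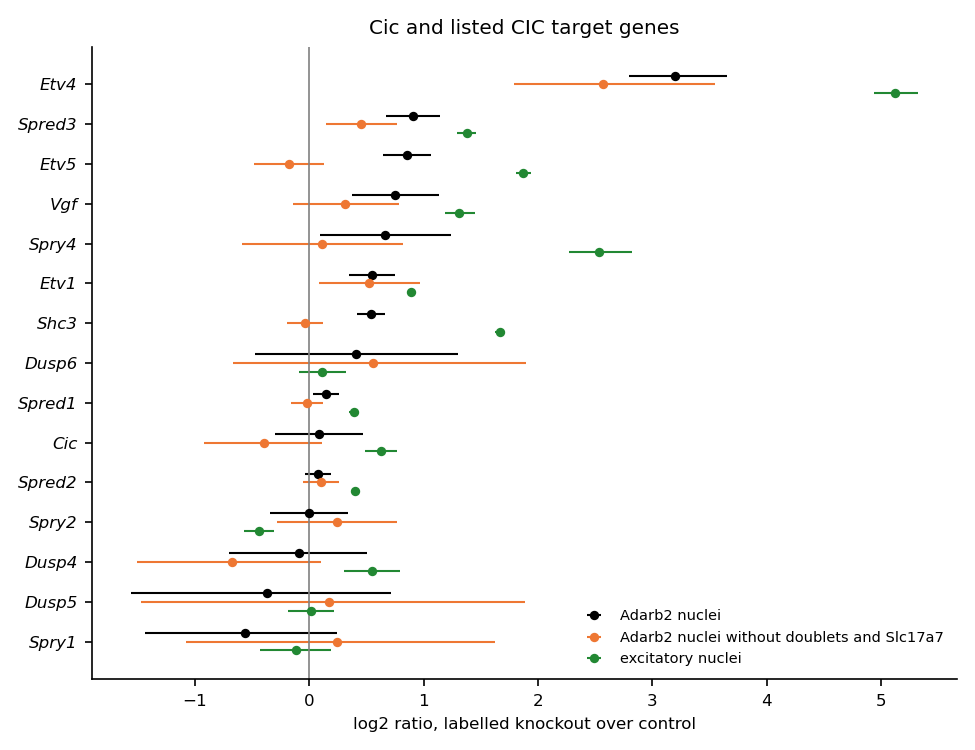
Log2 ratio of the library labelled knockout over the control (horizontal axis) for Cic and the listed CIC targets with at least 20 UMIs (vertical axis), in Adarb2 nuclei (black), in the strict set of Adarb2 nuclei (orange) and in excitatory nuclei (green). Bars are exact 95% intervals for counting error. Etv4 stood at 3.20, 2.57 and 5.12, while Etv5 stood at 0.86 in all Adarb2 nuclei and −0.18 in the strict set.

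Of the 10 higher genes that are not mitochondrial, 5 had a higher level in excitatory nuclei of the library labelled knockout than in its Adarb2 nuclei. Spink13, a protease inhibitor gene, had 65 and 210 UMIs and a log2 ratio of 2.03, but 38 and 55 UMIs and 0.52 in the strict set. Hsd11b1, which regenerates active glucocorticoid, had 51 and 155 UMIs and a ratio of 1.94, and 1.06 in the strict set. In excitatory nuclei Hsd11b1 stood at 5.96 and 29.6 CPM. Wdr95 had a ratio of 1.52, and 0.39 in the strict set, with 13.6 and 65.3 CPM in excitatory nuclei. Cnksr3, a scaffold gene abundant in oligodendrocytes at 605 and 553 CPM, had a ratio of 1.55 from 65 and 150 UMIs, and only 7 and 14 UMIs in the strict set. Abca8a, a lipid transporter gene, had 1.32, and 0.36 in the strict set. The noncoding Gm34567 had 1.46 from 69 and 150 UMIs and 2.67 in the strict set from 6 and 41.

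Mitochondrial transcripts stood higher in the library labelled knockout. The rule set a limit on their share in each nucleus, so their values are given as a description, and nothing is read from the count. The limits on genes and mitochondrial share together left out 847 barcodes of the control and 164 of the library labelled knockout, and the part of this difference in the ratios was not tested. Of 13 listed mitochondrial genes, 12 had at least 20 UMIs and all 12 were higher, 10 of them at least 2-fold, against 0.222% of all 8998 genes. Their median log2 ratio was 1.23, and 1.28 in the strict set, against 0.04 over all genes. mt-Co3, a cytochrome c oxidase subunit gene, had 641 and 1245 UMIs, a log2 ratio of 1.30. mt-Nd4l had 60 and 143 UMIs and a ratio of 1.59, and it overlaps mt-Nd4, at 501 and 917 UMIs. The list median was 2.14 in female and 0.75 in male nuclei, 0.72 in excitatory nuclei and 1.09 in Lhx6 nuclei. The summed level was 335 and 782 CPM in Adarb2 nuclei, 369 and 753 in Lhx6 nuclei and 206 and 335 in excitatory nuclei, so it was higher in the library labelled knockout in each of these 3 classes.

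Slc17a8 and Adgrg6 were the 2 genes past 2-fold that excitatory nuclei all but lacked. They were singled out after their values had been seen. Slc17a8 had 226 UMIs in 46 control nuclei and 364 UMIs in 63 nuclei of the library labelled knockout, or 19.2 CPM (16.8 to 21.9) and 39.4 CPM (35.4 to 43.7), a log2 ratio of 1.03 (0.79 to 1.28). In the strict set it was 0.78, in female nuclei 0.34 and in male nuclei 1.27. Excitatory nuclei held 0.175 and 0.156 CPM. The share of Adarb2 nuclei with a Slc17a8 UMI was 8.36% and 11.8% (9.20% to 14.9%), and their intervals overlap. Adgrg6, an adhesion G protein-coupled receptor gene, had 350 UMIs in 41 control nuclei and 104 in 26, a log2 ratio of −1.40 (−1.73 to −1.08), and −1.52 in the strict set. Up to 29 of the 350 UMIs came from 1 nucleus. Its ratio was −2.51 in female and −0.69 in male nuclei.

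Of the 14 lower genes, 8 had a higher level in control excitatory nuclei than in control Adarb2 nuclei. Glis3 and Trpc6 were not among these 8. Both were lower in the library labelled knockout in Vip-only nuclei, in Lamp5-only nuclei and in nuclei with neither gene. The noncoding 4921539H07Rik had 451 UMIs in 75 control nuclei and 40 in 16 nuclei of the library labelled knockout, which is a log2 ratio of −3.13. It stood at 233 and 40.5 CPM in excitatory nuclei and had 32 and 1 UMIs in the strict set. Glis3, a zinc finger transcription factor gene, had 1094 and 284 UMIs, a log2 ratio of −1.60, and −0.96 in the strict set, with 66.0 and 18.2 CPM in excitatory nuclei. Trpc6, a cation channel gene, had 1095 and 335 UMIs, a log2 ratio of −1.36, and −0.77 in the strict set, with 52.1 and 17.0 CPM in excitatory nuclei. Robo3, an axon guidance receptor gene, had −1.45, and 14 and 10 UMIs in the strict set. Prr5l had −1.79 from 129 and 29 UMIs, and oligodendrocytes held 810 and 524 CPM of it. 2310002F09Rik had −1.66, and −1.95 from 13 and 3 UMIs in the strict set. Tamalin had −1.20, and −0.58 in the strict set. Beside these, the share of Adarb2 nuclei with 2 or more Slc17a7 UMIs was 26.2% and 15.9%, and its part in the ratios was not tested.

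**Figure D5:**
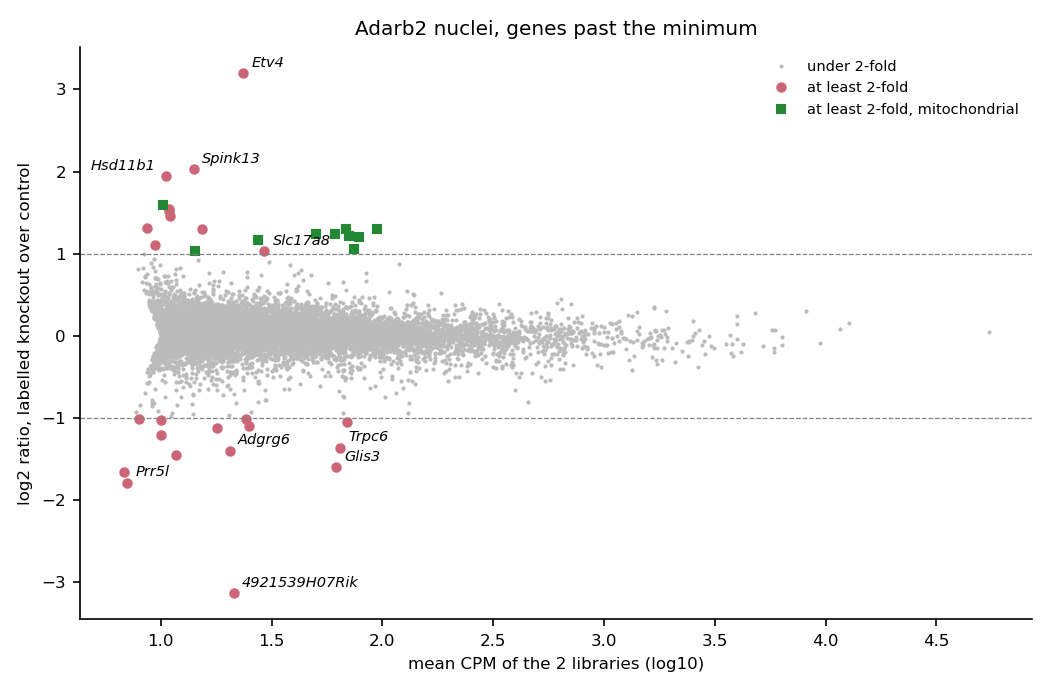
Log2 ratio of the library labelled knockout over the control (vertical axis) against the mean level in CPM on a log10 scale (horizontal axis) for the 8998 genes past the minimum in Adarb2 nuclei. Red points and green squares are at least 2-fold apart, the squares being mitochondrial genes, and dashed lines mark 2-fold. Etv4 at 3.20 and 4921539H07Rik at −3.13 stood farthest from 0.

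The listed GABA, Vip-type, Lamp5-type and caudal-lineage genes with at least 20 UMIs were within 2-fold between the 2 libraries. All 12 listed genes of GABA synthesis and the interneuron lineage were higher, with a median log2 ratio of 0.20, and 7 of 12 with a median of 0.03 in the strict set, and none passed 2-fold. Over all genes 8956 of 15541 were higher, with a median of 0.04. This list holds Gad1, Gad2 and Slc32a1, which the rule used. The Vip-type list had a median of 0.09, the Lamp5-type list 0.13 and the caudal-lineage list 0.17, all without a gene past 2-fold. Over strict-set nuclei these medians were −0.17, 0.05 and 0.09. The caudal-lineage list holds Adarb2, which the rule used. Its highest ratio was 0.77, for Htr3a, which is given below. The counting interval lay above 0 for 6 of 12 GABA genes and 6 of 10 caudal-lineage genes, against 1810 of all 15541. It lay below 0 for none of these listed genes, against 1181 of all genes. Vip had 808 and 675 UMIs, with a log2 ratio of 0.09 (−0.06 to 0.24), which was −0.18 in the strict set. Lamp5 had 250 and 237 UMIs, a ratio of 0.27 (0.01 to 0.53), which was 0.15 in the strict set.

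The Cck-type list had a higher median. Of 10 genes, 9 had at least 20 UMIs, and of these 8 were higher and 1 was lower, where 8956 of all 15541 genes were higher. Slc17a8 was past 2-fold upward and Trpc6 downward, as were 0.222% and 0.156% of all genes tested. The list median was 0.49, and 0.37 in the strict set, against 0.04 over all genes. Cck, the peptide gene, had 288 and 317 UMIs, with a log2 ratio of 0.49 (0.25 to 0.72), and 0.37 in the strict set. Cnr1 had 6336 and 6796 UMIs and a ratio of 0.45 (0.40 to 0.50), but 0.20 in the strict set. Htr3a had 144 and 193 UMIs and a ratio of 0.77, and 0.55 in the strict set. The lower member was Trpc6, described above. Cnr1 had a UMI in 83.5% and 82.7% of Adarb2 nuclei, 59.3% and 62.4% of excitatory nuclei and 12.2% and 9.82% of oligodendrocytes.

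Of 38 transmitter receptor genes, 12 were higher and 26 lower, where 8956 of all 15541 genes with at least 20 UMIs were higher. Their median log2 ratio was −0.15, and −0.08 in the strict set, against 0.04 over all genes. None passed 2-fold, which 0.222% of all genes tested did upward and 0.156% downward. Oprd1, the delta opioid receptor, was the lowest, at 217 and 88 UMIs and a ratio of −0.95 (−1.33 to −0.59), and −1.06 in the strict set. Grin2a, an NMDA receptor subunit gene, had −0.41, and −0.08 in the strict set. Npy1r, a neuropeptide Y receptor gene, had 0.67 from 167 and 209 UMIs, and 0.66 in the strict set. Adra1b had 0.68, and 0.38 in the strict set.

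Among 16 neuropeptide genes, 11 had at least 20 UMIs, 7 of them higher and 4 lower, a split near that of all genes, 8956 higher and 6585 lower. Their median was 0.39, and 0.19 in the strict set, against 0.04 over all genes. Npy had 101 and 126 UMIs, with a log2 ratio of 0.67 (0.28 to 1.06), which was −0.24 in female, 1.28 in male and 0.63 in strict-set nuclei. Grp, gastrin-releasing peptide, had 48 and 15 UMIs and a ratio of −1.30, but 14 and 12 UMIs in the strict set. Pnoc, the nociceptin precursor, had 202 and 213 UMIs and a ratio of 0.42, and 0.38 in the strict set. Penk had 216 and 125 UMIs and a ratio of −0.44 (−0.77 to −0.12), but 0.44 in female and −0.86 in male nuclei. Strict-set Penk had −0.67. Sst, a peptide of the medial lineage, had 46 and 18 UMIs, and its share of nuclei, 7.09% and 2.63%, stood beside 4.77% and 3.86% of excitatory nuclei. At 5000 UMIs per nucleus the shares were 1.78% and 1.04%, against 1.37% and 1.12% of excitatory nuclei, and the source of these UMIs was not tested.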

How the data were processed

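Single-nucleus libraries of hippocampus from 2 pools of mice were analysed. The deposited values are raw UMI counts per gene and barcode, made with Cell Ranger 8.0.1 per the file headers and the submitters' processing notes, which also name the mm39 build; other upstream settings are not given in the sources used here. The 25907 and 23207 barcodes held 314453640 and 252995761 UMIs, and 25060 and 23043 passed the filters of at least 500 genes and at most 5% mitochondrial UMIs.

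UMIs were summed over nuclei of a class in each library and given as CPM. Each sum had 0.5 UMI added before log2 ratios were taken. Genes were compared when the higher side had at least 50 UMIs and 10 CPM, and counted at 2-fold or more. With 1 library per group no test was run; intervals are exact binomial, Poisson or conditional binomial at 95% and cover counting error only. Thinned shares are the exact expected shares when each nucleus is drawn to 5000 UMIs. Doublets were called with Scrublet as implemented in scanpy and kept, since the rule does not remove them, and an alternative left them out. Female nuclei had at least 2 Xist UMIs and none of 4 Y-linked genes, and male nuclei had at least 1 Y-linked UMI and no Xist. Microglia had at least 4 UMIs summed over a short list of microglial marker genes, oligodendrocytes at least 4 of Mog and Mag, and both had no GABA or Slc17a7 UMI. The count script was tested on simulated data.

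The members and gene lists were chosen with earlier results of these data known, and the granule neuron list was chosen on these libraries. Named genes were the 8 with the largest ratio in each direction between libraries and the 12 in each direction between classes of nuclei, ranked by the smaller of the 2 libraries' ratios, besides Cic, the markers and list members. Overlapping genes were read from a GRCm38 annotation, which held 31961 of 33696 gene identifiers, and no coordinate is given. Python 3.11.15, numpy 2.4.6, scipy 1.17.1, pandas 2.3.3, scanpy 1.11.5, anndata 0.12.19 and matplotlib 3.10.9 were used.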

Additional observations from a re-analysis of the deposited data

Results flagged for a closer look

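The list of genes that respond to neuronal activity and handling had a median log2 ratio of 0.94 in female Adarb2 nuclei and −0.70 in male ones. Of the 11 members with at least 20 UMIs in all, 10 were higher and 1 was lower in female nuclei, and 3 were higher and 8 lower in male nuclei. Over all genes, 9169 were higher and 6372 lower in female nuclei, and 7853 and 7688 in male nuclei, with medians of 0.09 and 0.004. The sums behind the list were small, at 73 and 141 UMIs in female nuclei of the control and the library labelled knockout, and 213 and 152 UMIs in male nuclei. Over all Adarb2 nuclei the list median was −0.25, and in the strict set −0.04. It is given here because the female and male nuclei differed in sign; the difference was not tested.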

How the results depend on the processing

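Adarb2 nuclei with under 2 Slc17a7 UMIs made up 1.62% of all control nuclei and 2.85% of control nuclei under that limit, and the strict set 1.71% of nuclei not called doublets and 2.91% of nuclei passing both limits. The Adarb2 share was 1.96% with Adarb2 at 20 or more, 1.26% with a GABA sum of 8 or more, 2.40% with up to 1 Lhx6 UMI, 1.92% among female nuclei and 1.96% without nuclei lacking Dlx6os1. In the library labelled knockout these were 1.94% and 3.15%, 2.10% and 3.32%, 1.26% with the GABA sum of 8 and 2.05% without nuclei lacking Dlx6os1. The Vip share was 25.1% of the control without Slc17a7 nuclei, 25.2% in the strict set, 15.6% and 16.3% at 2 or more UMIs, 15.8% and 15.8% after thinning, and 15.8% of the library labelled knockout with the GABA sum of 8. The Lamp5 share was 32.0% and 28.9% with that sum, 15.0% and 23.2% in female nuclei, 11.6% and 11.3% at 2 or more UMIs and 9.59% and 10.7% after thinning. Between the libraries, 65 genes were 2-fold apart with the GABA sum of 8 (27 higher, 38 lower), 250 at 20 UMIs with no CPM minimum and 5092 with no minimum, against 34. The split of 20 higher and 14 lower was 15 and 27 in male nuclei, 18 and 22 without nuclei lacking Dlx6os1 and 18 and 17 with median-of-ratios size factors, which shifted all ratios by −0.05. The Cic log2 ratio was −0.40 in the strict set. At 20 UMIs the contrasts of nuclei held 807 genes for Adarb2 against Lhx6 and 493 for Vip against Lamp5. The balance of higher and lower genes changed side with the GABA sum of 8, in male nuclei and without nuclei lacking Dlx6os1. Of the alternative values of the main results, 90 kept within their counting interval or 1.5 times the count, and 36 were counted as moved. The cause of the differences was not tested. The strict set, the shares with matched totals, the Dlx6os1 setting and the 1-UMI Lhx6 comparison were chosen after seeing the data. No paired analysis was possible because each group is 1 library. Depth limits Lamp5, which had a median of 2 UMIs in the nuclei that held it.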
